A study of Zea mays with 50 samples.

Results

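CSD4 of maize (Zea mays) was expressed as a GFP fusion in leaf protoplasts, and the poly(A) RNA of those cells was set against that of protoplasts expressing GFP alone. The comparison took the 4 libraries of protoplast preps 1 and 3 that carried either construct, 2 with CSD4 and 2 with GFP, out of 50 libraries in all. It covered every row of the deposited table, of which 28122 of 30213 reached at least 1 RPKM in at least 2 libraries and were tested. RPKM is the number of reads that a gene model received, scaled to its length in kilobases and to the depth of the library, and a row is 1 gene model or 1 locus of phased small RNAs. A second reference was the 20 libraries of the same preps that carried 10 other regulators, OCL4, ZHD5, TCP23, ZFL2, NAC29, ZIM13, NAC119, HSF2, DOF25 and bHLH103.

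The series asks which candidate regulators switch on the loci that give rise to 21-nt reproductive phasiRNAs, small RNAs enriched in anthers. Each of 24 constructs, GFP included, was put into protoplasts of the inbred line B73 and sequenced from separate protoplast preps. All groups used here shared that genotype, cell source and 35S promoter, which comes from a plant virus and drives strong expression in most plant cells. The control was p35S-GFP and the CSD4 group was p35S-GFP-CSD4, so both expressed GFP and the CSD4 protein carried it as a fusion. Protoplasts came from leaves of more than 10 seedlings per prep, kept in the dark at 25 °C and taken 10 to 12 days after germination. The cells are therefore etiolated leaf cells without walls, not anther cells, and the share of cells that took up the construct is not given in the sources used here. Each construct had 1 library per prep, and the fit takes out the mean shift of each prep. The p-values therefore measure the scatter that remains between libraries of the same construct, pooled over the 24 constructs. They do not measure the spread between plants.

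The CSD label is the name that plant transcription factor catalogues give to cold shock domain proteins. In bacteria the cold shock domain binds single-stranded RNA and DNA, and cold shock proteins there act as RNA chaperones that melt secondary structure in the cold. In wheat and Arabidopsis, cold shock domain proteins bind nucleic acids, accumulate in the cold and act in freezing tolerance and in development. PhasiRNAs are made when a long transcript of a PHAS locus is cleaved under guidance of a microRNA, made double-stranded by an RNA-dependent RNA polymerase and diced at regular steps of 21 or 24 nucleotides.

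The 24 libraries of preps 1 and 3 held between 7603575 and 11875644 reads, as recovered from the RPKM values, and neither CSD4 library lay outside the range of the others. Marker rows of cell types were followed by name, and 3 of the 5 sought for mesophyll and 3 of 5 for bundle sheath were found. The mesophyll rows summed to 114.5 and 104.2 RPKM with GFP and to 97.1 and 149.2 RPKM with CSD4, within the 87.2 to 190.0 RPKM of the other regulators' libraries. Most of that sum was ppdk1, the pyruvate phosphate dikinase of C4 photosynthesis, while pep1, the C4 form of phosphoenolpyruvate carboxylase, lay below 0.6 RPKM in all 4 libraries. The bundle sheath rows summed to 11.3 to 17.1 RPKM over the 4 libraries. Of the 5 anther markers only ms32 was found by name, at 21.9 and 17.0 RPKM with GFP and 18.5 and 15.03 RPKM with CSD4. Epidermis rows summed to 55.5 and 45.3 RPKM with GFP and 42.9 and 41.4 RPKM with CSD4. The root or meristem marker rth3 stood at 33.4 and 36.4 RPKM with GFP and 28.5 and 44.5 RPKM with CSD4. The phloem marker sut1 stood at 1.95 and 1.77 RPKM with GFP and 1.67 and 2.75 RPKM with CSD4. These rows compare the libraries and do not settle which cell types were present.

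The row of CSD4 itself, GRMZM5G895313, was the most abundant row in both CSD4 libraries and checked their labels. It stood at 49.1 RPKM in prep 1 and 38.5 RPKM in prep 3 with GFP, and at 11263 RPKM in prep 1 and 14567 RPKM in prep 3 with CSD4. The groups lay far apart, by 229.5-fold in prep 1 and 378.4-fold in prep 3. Behind these values were 419 and 420 reads with GFP and 121251 and 167217 reads with CSD4. The 48 libraries without the CSD4 construct, those of preps 2 and 4 included, ran from 29.0 to 54.1 RPKM with a mean of 38.5 ± 5.37 (SD, n = 48). Leaf protoplasts thus carried a CSD4 transcript of their own. Since reads of the construct and of the endogenous gene fall on the same row, they cannot be told apart in the CSD4 libraries.

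The fitted change of the CSD4 row was 8.19 ± 0.15 (SE) on the log2(RPKM + 0.5) scale against GFP, with an adjusted p of 2.67e-24 by limma with Benjamini-Hochberg adjustment over the 28122 rows. Against the other regulators it was 8.35 ± 0.11. The row took 1.36% of all reads in the prep 1 library (95% exact binomial interval 1.35% to 1.36%, counting error only) and 1.59% in the prep 3 library, against 0.00551% and 0.00434% with GFP. The level was 1.29-fold higher in prep 3 than in prep 1. No other row of the table carried a cold shock domain name, so other members of that family could not be followed.

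**Figure D1:**
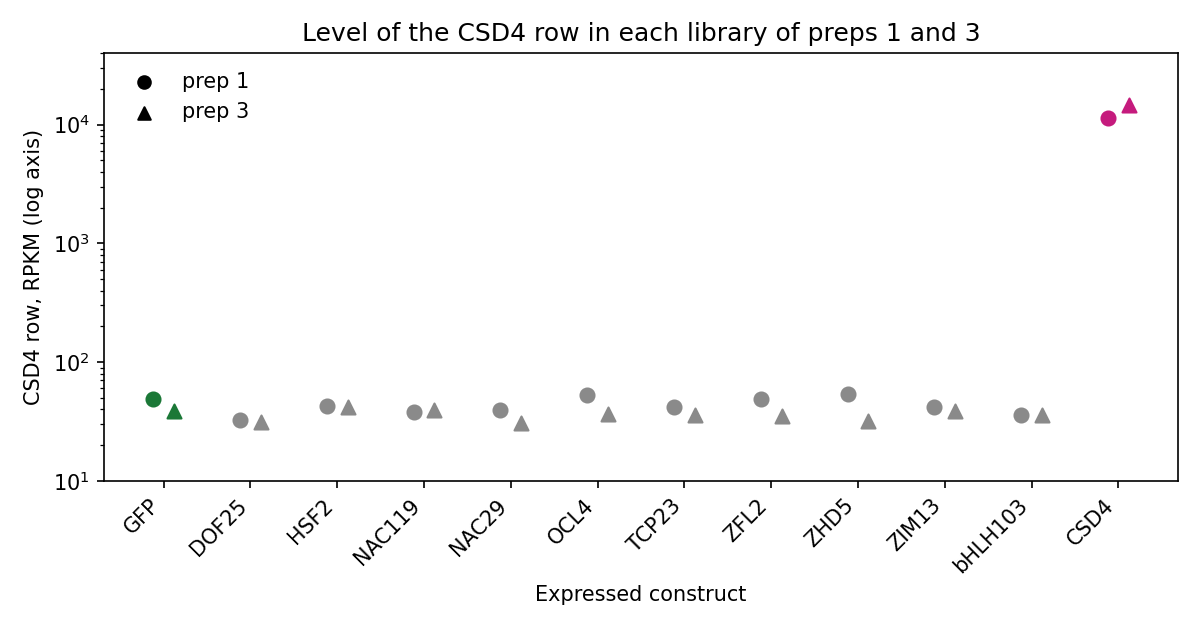
Level of the CSD4 row in RPKM on a log axis for each of the 24 libraries of preps 1 (circles) and 3 (triangles), by expressed construct. The 2 CSD4 libraries sit at 11263 and 14567 RPKM, and the 22 others lie between 30.8 and 54.1 RPKM.

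Against GFP, 13 rows passed the call rule, an adjusted p below 0.05 with a change of at least 1 log2 unit (0.0462% of rows tested). Higher with CSD4 were 10 rows (0.0356%) and lower were 3 (0.0107%), but without the prep 3 library of CSD4 the split turned to 4 higher and 12 lower. Without the fold minimum the numbers were 27 higher and 4 lower (0.096% and 0.0142%, 0.11% in all). By unadjusted p below 0.05 there were 2022 rows higher (7.19%) and 1951 lower (6.94%), 14.1% of those tested. The call rule thus took in CSD4 itself and 12 further rows, and the fit without the prep block called only 5 rows, all of them among the 13. The count was 3 without the prep 1 library of CSD4 and also 3 without the prep 1 library of GFP, with 2 of the 13 among them each time. Limma-voom on the recovered reads called 7, of which 6 were among the 13, and the blocked fit of preps 1 and 3 alone called 6, of which 4 were among the 13.

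Against the other regulators, 17 rows passed the same rule (0.0605%), 10 higher (0.0356%) and 7 lower (0.0249%). Without the fold minimum 104 rows were higher (0.37%) and 25 lower (0.0889%), 0.459% in all. By unadjusted p below 0.05 there were 1751 higher (6.23%) and 1527 lower (5.43%), 11.7% of rows. The fit without the prep block called 11 rows, all among the 17. Without the prep 1 library of CSD4 9 rows were called, of which 4 were among the 17, and without that of prep 3 14 rows, 5 higher and 9 lower, of which 6 were among the 17. Limma-voom called 21 rows, 21 higher and 0 lower, of which 10 were among the 17, and a pseudocount of 0.1 gave 10 higher and 16 lower. Both comparisons use the same 2 CSD4 libraries.

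Including CSD4, 5 rows were called higher against both references, and these are the same 5 rows that the fit without the prep block called against GFP. In each of them both CSD4 libraries lay above all 22 other libraries of preps 1 and 3, as they did in 339 rows (1.21%) of those tested. The rows were called on these same values, so this is not separate support. None of the 4 rows besides CSD4 has a gene name in the reference used here, and no role can be given for them.

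GRMZM2G015955 stood at 4.54 and 5.25 RPKM with GFP in preps 1 and 3, and at 21.4 and 22.1 RPKM with CSD4. The other regulators' libraries ran from 4.80 to 10.2 RPKM with a median of 6.98, so the groups did not overlap and the CSD4 libraries were close to each other. The change was 2.05 ± 0.24 log2 against GFP (limma, adjusted p = 5.76e-05) and 1.604 ± 0.178 against the other regulators (adjusted p = 9.65e-06). It was the one row besides CSD4 that kept its call against both references in all 13 alternative settings run for each. Among these 13, the setting without the fold minimum cannot remove a call. The reads behind the row were 67 and 99 with GFP and 399 and 438 with CSD4.

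GRMZM2G064382 stood at 2.70 and 2.61 RPKM with GFP and at 8.44 and 8.18 RPKM with CSD4. All 20 libraries of the other regulators lay between 0.944 and 2.76 RPKM, below both CSD4 libraries, and the 2 preps gave the same difference of 1.48 log2 from GFP. The fitted change was 1.48 ± 0.24 against GFP (limma, adjusted p = 0.0064) and 1.88 ± 0.18 against the other regulators (adjusted p = 5.40e-07). Against the other regulators the call held in all 13 alternatives, of which dropping the fold minimum could not remove it. Against GFP it was lost when any of the 4 libraries was left out and in the fit of preps 1 and 3 alone. Outside these preps the row reached 7.04 RPKM in the prep 2 library of MYB131.

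GRMZM2G032807 was the most abundant of the 4. It stood at 47.5 RPKM in prep 1 and 139.4 RPKM in prep 3 with GFP, and at 308.8 and 325.9 RPKM with CSD4. The CSD4 libraries were alike, but the GFP libraries differed from each other, so the difference was 2.69 log2 in prep 1 and 1.22 log2 in prep 3. The fit gave 1.96 ± 0.32 against GFP (limma, adjusted p = 0.0064) and 1.75 ± 0.24 against the other regulators (adjusted p = 0.000284), whose libraries ran from 39.3 to 240.8 RPKM. Both ZFL2 libraries were the highest of these, at 240.8 RPKM in prep 1 and 208.6 RPKM in prep 3, and the next stood at 118.6 RPKM. The call against GFP was lost without either library of prep 1 and in the fit of preps 1 and 3 alone. With 1 of the 4 libraries left out, the change against GFP ran from 1.22 to 2.69. The call against the other regulators was lost without the CSD4 library of prep 1. With a CSD4 library left out, that change ran from 1.69 to 1.82.

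GRMZM2G051915 stood at 1.39 and 1.92 RPKM with GFP and at 13.3 and 11.7 RPKM with CSD4. The other regulators' libraries filled the space between, from 1.53 to 10.4 RPKM with a median of 4.60. The change was 2.60 ± 0.37 against GFP (limma, adjusted p = 0.00134) and 1.35 ± 0.27 against the other regulators (adjusted p = 0.0202), so most regulators' libraries also stood above GFP on this row. It reached 44.7 RPKM in the prep 2 library of EREB69, above either CSD4 library. The call against GFP was lost without either library of prep 1, and that against the other regulators when either CSD4 library was left out, without the prep block and with preps 1 and 3 alone.

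**Figure D2:**
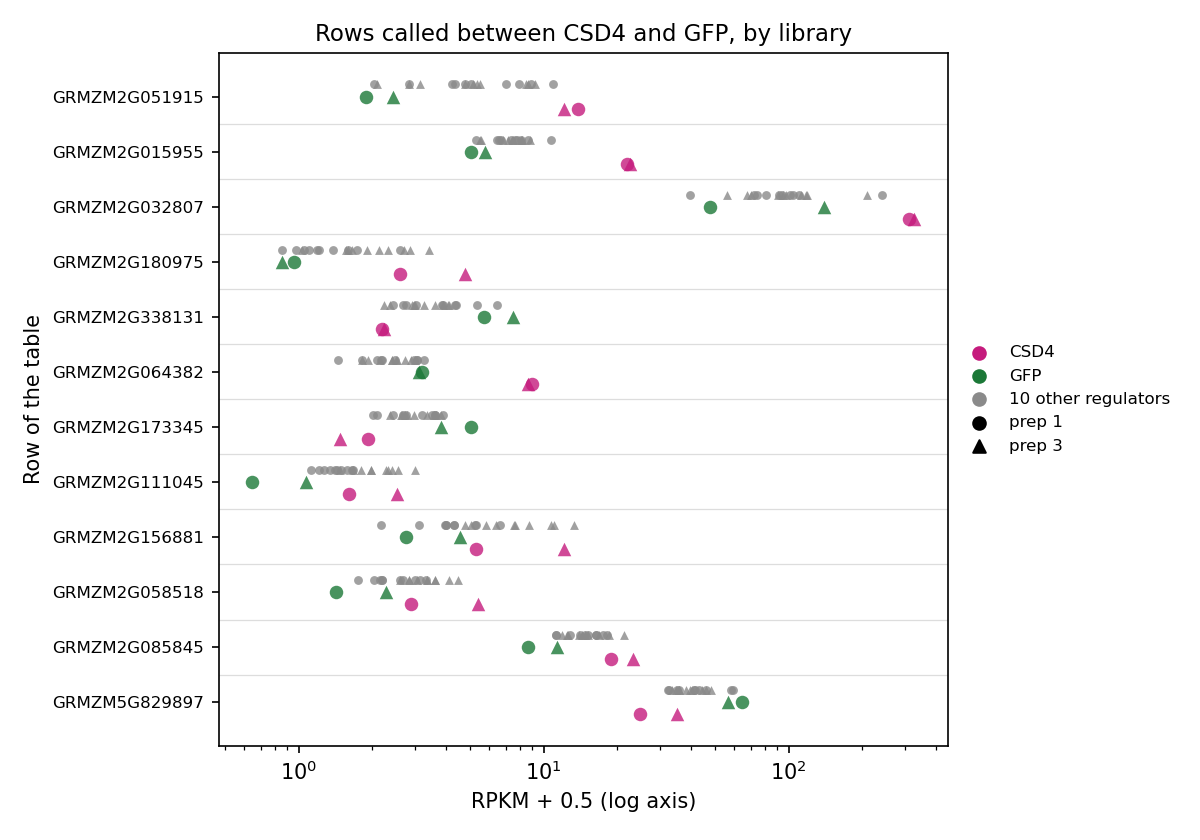
The 12 rows besides CSD4 called between CSD4 and GFP, as RPKM + 0.5 on a log axis, with 1 point per library of preps 1 (circles) and 3 (triangles). CSD4 is magenta, GFP green and the 20 libraries of the 10 other regulators grey; GRMZM2G015955 and GRMZM2G064382 show the CSD4 points clear of all others, while several rows lower down show the grey points on the CSD4 side of GFP.

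The other 5 rows called higher against GFP were not called against the other regulators, and for them both GFP libraries lay below the median of the other regulators. GRMZM2G111045, a MYB transcription factor row with the names MYB103 and Myb7, stood at 0.147 and 0.574 RPKM with GFP and at 1.11 and 2.02 RPKM with CSD4. These values rest on 2 and 10 reads against 19 and 37. The other regulators ran from 0.622 to 2.50 RPKM, around the CSD4 values and above both GFP libraries, and the change of 1.27 ± 0.24 against GFP (limma, adjusted p = 0.0283) stood beside 0.23 ± 0.17 against the other regulators. GRMZM2G058518, a NAC-family row named ANAC010, stood at 0.927 and 1.79 RPKM with GFP and 2.37 and 4.88 RPKM with CSD4. Within each group prep 3 was the higher one, the lower CSD4 library stood above the higher GFP library, and the other regulators spanned 1.25 to 3.97 RPKM. Its change was 1.12 ± 0.20 against GFP (limma, adjusted p = 0.0261) and 0.46 ± 0.15 against the other regulators.

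Of the unnamed ones, GRMZM2G180975 had the lowest GFP values, 0.459 and 0.359 RPKM from 4 reads each, against 2.09 and 4.27 RPKM with CSD4. GRMZM2G156881 stood at 2.24 and 4.06 RPKM with GFP and 4.78 and 11.6 RPKM with CSD4, and GRMZM2G085845 at 8.14 and 10.8 against 18.4 and 22.7 RPKM. Their changes against GFP were 1.95, 1.18 and 1.08 log2, and against the other regulators 1.12, 0.50 and 0.50. All 3 rows, and GRMZM2G058518 and GRMZM2G111045 with them, lost the call against GFP when any 1 of the 4 libraries was left out.

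The 3 rows called lower against GFP showed the mirror image, with GFP near the top of the range. GRMZM2G338131 stood at 5.19 and 6.97 RPKM with GFP and 1.68 and 1.73 RPKM with CSD4. GRMZM2G173345 stood at 4.56 and 3.32 RPKM with GFP and 1.42 and 0.970 RPKM with CSD4, the last 2 from 11 and 8 reads. GRMZM5G829897 stood at 64.3 and 55.9 RPKM with GFP and 24.4 and 34.6 RPKM with CSD4. In each row both CSD4 libraries lay below both GFP libraries, as they did in 19.4% of all rows tested. The changes were -1.56 ± 0.30, -1.39 ± 0.28 and -1.03 ± 0.20 log2 against GFP, and -0.64, -0.82 and -0.45 against the other regulators, where none was called. For GRMZM2G173345 both CSD4 libraries lay below all 22 other libraries of the 2 preps, as in 0.476% of rows tested. Its adjusted p against the other regulators was 0.0734 by limma. The calls of GRMZM2G338131 and GRMZM2G173345 against GFP were lost when any 1 of the 4 libraries was left out. That of GRMZM5G829897 was lost without either GFP library, without the prep 1 library of CSD4, without the prep block and with preps 1 and 3 alone, and its change ran from -1.33 to -0.74 with 1 library left out.

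Another 5 rows were called higher only with the other regulators as the reference, and none of them has a gene name. AC201876.4_FG002 stood at 4.30 and 5.05 RPKM with GFP, 8.19 and 8.21 RPKM with CSD4 and 1.67 to 5.41 RPKM with the other regulators. GRMZM2G483598 stood at 13.1 and 16.6 RPKM with GFP, 24.4 and 21.4 RPKM with CSD4 and 5.55 to 17.5 RPKM with the others. In both rows the CSD4 libraries lay above all 22 others, as in 1.21% of rows tested, and GFP lay in the upper part of the remaining range. The changes against the other regulators were 1.37 ± 0.25 and 1.18 ± 0.17 (limma, adjusted p = 0.00978 and 0.000858), and against GFP 0.75 ± 0.34 and 0.62 ± 0.23.

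GRMZM2G360234 (3.41 and 5.80 RPKM with CSD4, 0.945 to 3.14 RPKM with the others) and GRMZM2G051305 (12.0 and 17.1 RPKM with CSD4, 2.99 to 10.7 RPKM with the others) also had both CSD4 libraries above the rest. GRMZM2G460617 did not: its CSD4 libraries stood at 14.4 and 17.99 RPKM, and 2 other libraries lay above both. These were the ZFL2 libraries, at 23.0 RPKM in prep 1 and 22.1 RPKM in prep 3. All 5 rows lost the call against the other regulators when either CSD4 library was left out. Against GFP, GRMZM2G360234, GRMZM2G051305 and GRMZM2G460617 changed by 0.94 ± 0.24, 1.20 ± 0.27 and 1.33 ± 0.37. Their adjusted p-values against GFP by limma were 0.107, 0.0677 and 0.125. Against the other regulators they changed by 1.07 ± 0.18, 1.06 ± 0.20 and 1.23 ± 0.28. The difference between the 2 references was not tested for any row.

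Of the 7 rows called lower against the other regulators, 5 were rows with very high values in both libraries of 1 other construct, which enter the reference mean. GRMZM2G393433, with the names CUC2 and NAC119, reached 5141 RPKM with NAC119, and the ocl4 row GRMZM2G123140 reached 3335 RPKM with OCL4. GRMZM2G180190 reached 6525 RPKM with ZFL2, GRMZM2G120151 reached 8405 RPKM with TCP23 and GRMZM2G108865 reached 3645 RPKM with DOF25. With CSD4 and with GFP, each of the 5 lay below 0.4 RPKM, and none of them was called against GFP. These 5 calls rest on the reference libraries and not on a difference between CSD4 and GFP. The remaining 2 were GRMZM2G038869, at 0.287 and 0.404 RPKM with CSD4 from 2 and 3 reads, and GRMZM2G121990, at 0.764 and 0.860 RPKM from 5 and 6 reads. Both CSD4 libraries lay below all 22 others in these 2 rows, as in 0.476% of rows tested. The fitted changes were -1.17 ± 0.26 and -1.04 ± 0.24 (limma, adjusted p = 0.0309 and 0.0376). Neither was called by limma-voom on the recovered reads or when a CSD4 library was left out.

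**Figure D3:**
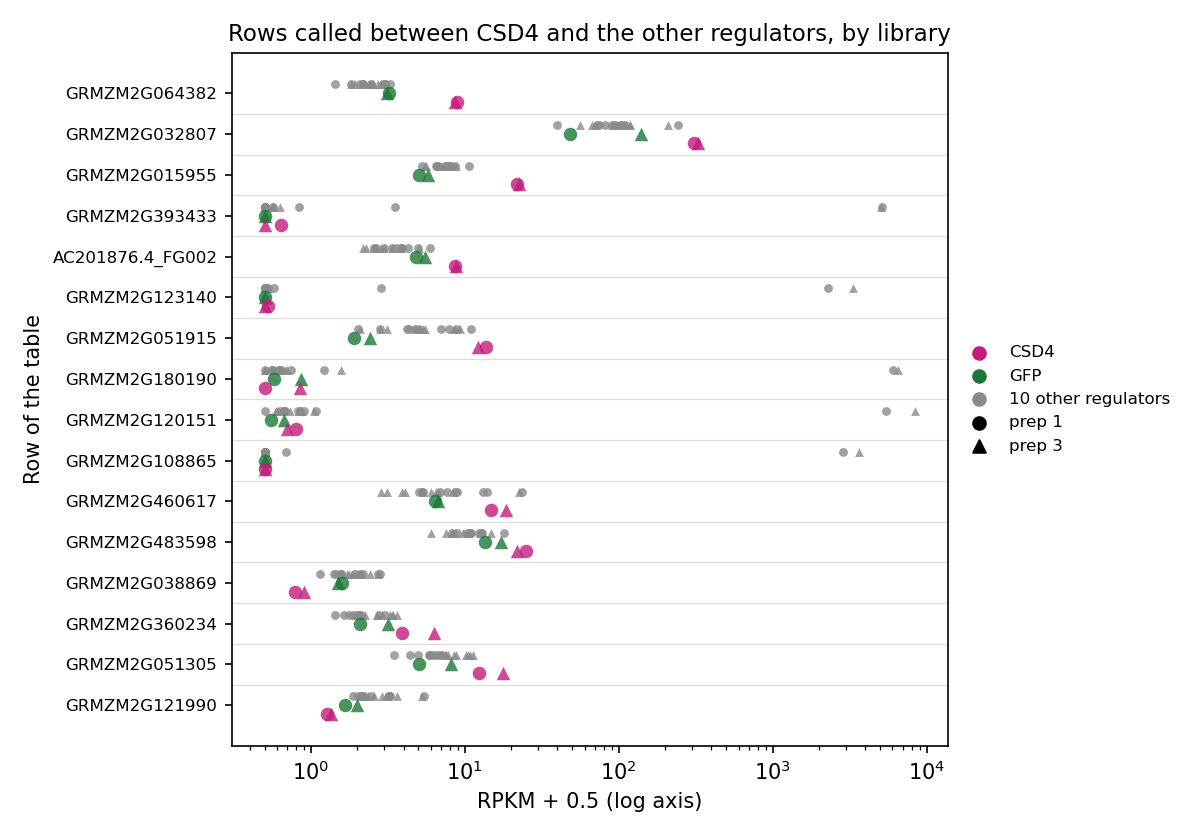
The 16 rows besides CSD4 called between CSD4 and the 10 other regulators, drawn as RPKM + 0.5 on a log axis by library, with the same colours and symbols. In 5 rows the grey points far to the right belong to 1 other construct, and CSD4 and GFP both lie near 0.5.

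Gene names were at hand for 2011 of the 30213 rows. Of the 31 rows with an adjusted p below 0.05 against GFP, those with a name were CSD4, GRMZM2G111045 and GRMZM2G058518, described above, and acco20. The latter, an ACC oxidase of the last step of ethylene synthesis, stood at 2.02 and 2.40 RPKM with GFP and 4.29 and 4.36 RPKM with CSD4, a change of 0.84 ± 0.17 (limma, adjusted p = 0.0488) with 0.26 ± 0.13 against the other regulators. Next in order of p, with no adjusted p below 0.05, were DBP2 at 0.83, KEA2 (a potassium antiporter) at 0.86, wox13A (a homeobox factor) at 0.67 and cki2 at 0.45 log2. The name wox13A belongs to the rows GRMZM2G069274 and GRMZM2G038252, which hold nearly the same reads, as do the 2 rows named CYP734A7, a cytochrome P450, at 1.36 log2 each. How reads shared by near-identical rows were counted is not stated, so each pair is 1 observation at most. The prep 1 and prep 3 values of CYP734A7 were 15.4 and 7.64 RPKM with CSD4 and 3.65 and 4.22 RPKM with GFP, within the 4.71 to 22.03 RPKM of the other regulators for both CSD4 libraries.

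On the lower side no named row had an adjusted p below 0.05 against GFP. The lowest p-values belonged to pdc3 (pyruvate decarboxylase) at -0.72 log2, rf2c at -0.90, CPK21 (a calcium-dependent protein kinase) at -0.39, vpsh26 at -0.55 and a row named RPL10 (a ribosomal protein) at -0.90. After them came frk1 (fructokinase) at -0.41, sus2 (sucrose synthase) at -0.61, ohp1 at -0.32, Yucca6 (auxin synthesis) at -1.07 and HSF6 (a heat shock transcription factor) at -0.67. Their adjusted p-values by limma lay between 0.0763 and 0.125.

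Set against the other regulators, where the standard errors were smaller, modest changes of named rows passed the adjusted p though not the fold minimum. PIS stood at 26.2 and 24.3 RPKM with GFP, 31.4 and 33.1 RPKM with CSD4 and 20.2 to 27.2 RPKM with the others, a change of 0.45 ± 0.07 (limma, adjusted p = 0.00338). Its CSD4 libraries lay above all 22 others, as in 1.21% of rows tested. The same held for LAZ1-7 at 0.29 ± 0.06 and sbe1 (a starch branching enzyme) at 0.49 ± 0.10. It also held for both rows named sbp12 (an SBP-box transcription factor), at 0.73 ± 0.16 each. Both sbp12 rows hold nearly the same reads, so they are not separate observations. Also with an adjusted p below 0.05 were rpp2a-4, an acidic ribosomal protein, at 0.60 ± 0.14, and rel2, a transcriptional corepressor, at 0.25 ± 0.06.

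Lower against the other regulators without reaching the fold minimum were frk1, gln1-3 and fl1. For frk1, values were 31.1 and 38.0 RPKM with GFP, 23.4 and 28.3 RPKM with CSD4 and 28.0 to 51.3 RPKM with the others. The change of -0.44 ± 0.08 (limma, adjusted p = 0.0113) was near the -0.41 ± 0.11 against GFP, which did not pass. The row of gln1-3, a cytosolic glutamine synthetase, stood at 236.7 RPKM in prep 1 and 343.3 RPKM in prep 3 with CSD4 and at 315.7 to 467.5 RPKM with the others. Only the prep 1 library of CSD4 was outside that range, and the fitted change was -0.42 ± 0.09 (limma, adjusted p = 0.0327). The row fl1, a LEAFY-like gene also named zfl1, had 0 reads in all 4 libraries of CSD4 and GFP and reached 162.6 RPKM with ZFL2. In the prep 2 library of ZFL1 it reached 11594 RPKM. Its change was -0.88 ± 0.19 against the other regulators and 0 against GFP, so it shows no change between CSD4 and GFP.

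The series turns on the PHAS rows. Of 9 such rows in the table, 7 reached the filter, and 0 of 7 were called against GFP or against the other regulators by limma, with or without the fold minimum, or by limma-voom. With 0.0462% and 0.0605% of all rows called, a count of 0 among so few rows does not set them apart. By unadjusted p below 0.05 the numbers were 0 against GFP and 1 against the other regulators, beside 14.1% and 11.7% of all rows. That one was 21PHAS_NO232, at 3.56 and 4.06 RPKM with GFP, 3.34 and 2.65 RPKM with CSD4 and 2.57 to 8.52 RPKM with the others. The CSD4 values lay at the low end of the range, and the change was -0.31 ± 0.43 against GFP (95% interval -1.19 to 0.58) and -0.66 ± 0.32 against the other regulators (limma, unadjusted p = 0.0491, adjusted p = 0.429). Between 11 and 16 reads stood behind each of the 4 values.

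The most abundant PHAS row was 24PHAS_NO166. It stood at 219.2 and 277.3 RPKM with GFP and at 230.4 and 287.7 RPKM with CSD4. Prep 3 was higher than prep 1 in both groups and the groups overlapped. Its change of 0.06 ± 0.14 had a 95% interval of -0.23 to 0.36 log2, the narrowest of the 7.

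The other 21-nt rows were near the limit of detection. 21PHAS_NO556 stood at 0.785 and 1.67 RPKM with GFP and 1.601 and 1.001 RPKM with CSD4, and 21PHAS_NO583 at 1.32 and 0.344 RPKM with GFP and 0.349 and 1.31 RPKM with CSD4. In both rows the 2 preps went in opposite directions, and the 95% intervals were -0.55 to 0.73 and -1.21 to 1.21 log2. With 2 to 8 reads per library in 21PHAS_NO583, a change within that interval was not detectable at this depth.

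Among the remaining 24-nt rows, 24PHAS_NO8 stood at 1.37 and 4.29 RPKM with GFP and 3.04 and 3.06 RPKM with CSD4. 24PHAS_NO42 stood at 1.54 and 0.638 against 0.359 and 0.607 RPKM, and 24PHAS_NO160 at 5.18 and 3.29 against 3.55 and 3.33 RPKM. The groups overlapped in 24PHAS_NO8 and 24PHAS_NO160. In 24PHAS_NO42 both CSD4 values lay below both GFP values, as in 19.4% of all rows, and inside the range of the other regulators. The changes against GFP were 0.25 ± 0.52, -0.64 ± 0.45 and -0.23 ± 0.27 log2. The 2 rows below the filter were 24PHAS_NO35, at 0.820 and 0.642 RPKM with GFP and 0.569 and 0.610 RPKM with CSD4, and 24PHAS_NO44. The latter had 7 and 10 reads with GFP and 1 and 0 reads with CSD4, and the libraries of the other regulators ran from 0 to 0.597 RPKM.

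The rows of the small RNA machinery were followed as well. Of 18 rows found by name, 16 were tested and 0 were called in either comparison, beside 0.0462% and 0.0605% of all rows. By unadjusted p below 0.05, 3 were higher and 1 lower against GFP, beside 7.19% and 6.94% of all rows, and 0 differed against the other regulators. The median change was -0.04 log2 against GFP and 0.05 against the other regulators, beside 0 and -0.0027 over all rows tested. The lowest p-values against GFP were those of met2, a DNA methyltransferase, at -0.61 ± 0.21, and GRMZM2G160473, 1 of 3 rows named dcl4, the Dicer-like enzyme of 21-nt siRNAs, at 0.44 ± 0.19. The other dcl4 rows, GRMZM2G024466 and GRMZM2G050882, had changes of -0.23 ± 0.26 and -0.33 ± 0.26. For GRMZM2G160473 the prep 1 GFP library was the low one, at 13.7 RPKM against 21.8 RPKM in prep 3, with 22.5 and 25.0 RPKM with CSD4. Its change against the other regulators was 0.11 ± 0.14.

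Lists of genes for other cell functions were followed by their names. Apart from CSD4 itself, no member of the 18 lists was called in either comparison, where 0.0462% and 0.0605% of all rows were. Several medians lay away from 0 against GFP and nearer to it against the other regulators. The widest was that of heat shock proteins, chaperones of the heat and protein-damage response, with 8 rows tested and a median of -0.77 log2 against GFP. It was -1.31 in prep 1 and -0.21 in prep 3, and -0.38 against the other regulators. All 8 rows had a negative sign in both comparisons, and 6 had an unadjusted p below 0.05 against GFP and 2 against the other regulators, beside 6.94% and 5.43% of all rows on the lower side.

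The small heat shock protein row hsp18 stood at 640.8 and 421.2 RPKM with GFP, 202.6 and 333.4 RPKM with CSD4 and 219.9 to 1015 RPKM with the other regulators. The prep 1 library of CSD4 was below all of these, while that of prep 3 lay inside the range. Its change was -0.998 ± 0.336 against GFP (limma, adjusted p = 0.192) and -0.68 ± 0.25 against the other regulators (adjusted p = 0.261). The chaperone row hsp82 stood at 422.4 and 284.8 RPKM with GFP and 165.4 and 235.4 RPKM with CSD4, and hsp101, the disaggregase, at 306.4 and 198.8 against 119.5 and 169.6 RPKM. In each of these rows GFP of prep 1 was the highest of the 4 libraries and CSD4 of prep 1 the lowest.

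Ribosomal proteins and translation factors had different medians against the 2 references, a difference that was not tested. Of 31 ribosomal protein rows, 2 had a positive sign against GFP with a median of -0.27 log2, and 21 had a positive sign against the other regulators with a median of 0.05. Over all 28122 rows the positive signs were 14073 and 13903. Translation factors had medians of -0.22 and -0.05 over 12 rows, with 0 and 4 positive. The initiation factor row named eIF-4A stood at 107.7 and 90.3 RPKM with GFP, 77.0 and 81.1 RPKM with CSD4 and 69.1 to 90.6 RPKM with the others, so both CSD4 libraries lay inside the range of the others and the GFP library of prep 1 above it.

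Aquaporins (12 rows) had a median of 0.44 log2 against GFP, which was -0.0071 in prep 1 and 0.47 in prep 3, and of -0.06 against the other regulators. Pathogenesis-related proteins (6 rows) had medians of 0.35 and -0.17. Glutathione S-transferases, which conjugate toxic compounds to glutathione, had medians of -0.43 and -0.15 over 25 rows. In the last list gst19 went the other way, at 11.2 and 14.8 RPKM with GFP and 34.6 and 25.0 RPKM with CSD4, a change of 1.16 ± 0.43 (limma, adjusted p = 0.236) that was 0.06 ± 0.32 against the other regulators. The jasmonate list, with 41 rows tested, had medians of 0.02 and -0.10.

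Cold and oxidative stress genes were listed because cold shock domain proteins are known from the cold response. The 5 cold and dehydration rows had medians of -0.07 log2 against GFP and -0.04 against the other regulators. The dehydrin row dehydrin3 was high in all 4 libraries, at 889.1 and 691.8 RPKM with GFP and 817.1 and 877.3 RPKM with CSD4, and the groups overlapped. Superoxide dismutases and other peroxide-removing enzymes (20 rows) had medians of 0.07 and -0.03. Among them fsd1, an iron superoxide dismutase, stood at 7.26 and 7.17 RPKM with GFP and 12.1 and 9.86 RPKM with CSD4, with the other regulators at 5.59 to 10.2 RPKM. Its change of 0.57 ± 0.20 against GFP had an adjusted p of 0.219 by limma.

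The other lists had fitted medians between -0.18 and 0.19 log2 in both comparisons. They were C4 photosynthesis, light harvesting, anaerobic and sucrose breakdown, histones, cytoskeleton with ubiquitin, autophagy and protein disulfide isomerases. In some of them the preps differed against GFP. Histones had medians of -0.69 in prep 1 and 0.22 in prep 3, and anaerobic and sucrose breakdown -0.42 and 0.03. C4 photosynthesis had -0.37 and 0.07, and cytoskeleton with ubiquitin -0.37 and 0.01. Light harvesting, autophagy and protein disulfide isomerases stayed between -0.09 and 0.18 in either prep. In bulk RNA a lower level from fewer cells of a type and from less RNA per cell cannot be told apart.

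**Figure D4:**
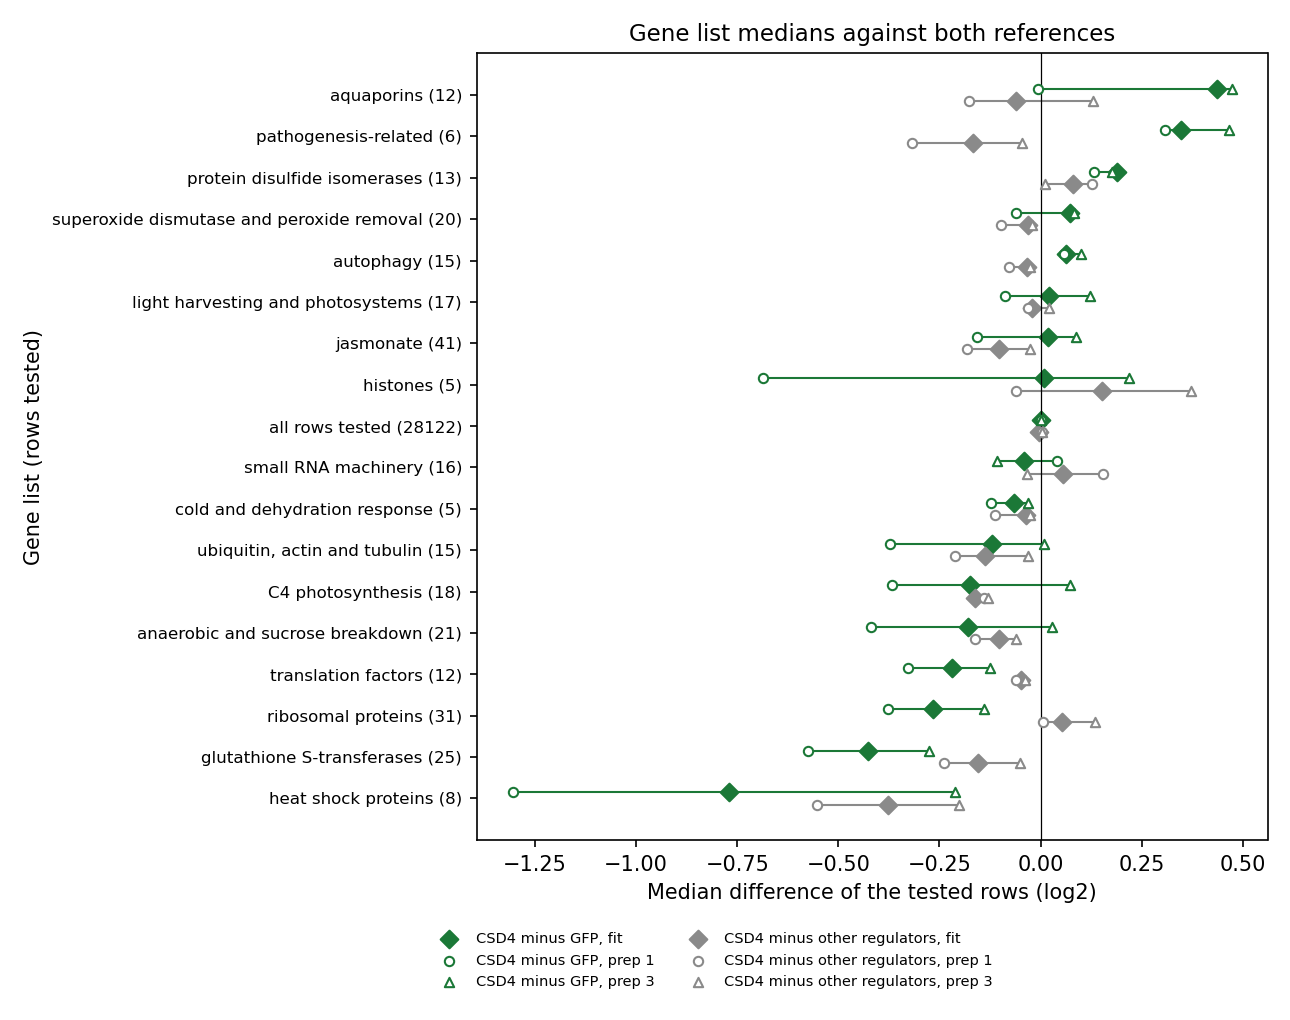
Median log2 difference of the tested rows of each gene list, CSD4 minus GFP in green and CSD4 minus the other regulators in grey, with the fitted value as a diamond and preps 1 and 3 as open circles and triangles. Heat shock proteins lie furthest below 0 against GFP, at -0.77, with -1.31 in prep 1 and -0.21 in prep 3; the cold shock list held CSD4 alone and is not drawn.

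The 2 preps were set side by side over all rows tested, as a description in which rows are not replicates. The differences CSD4 minus GFP in prep 1 and in prep 3 had a Pearson r of 0.16 across 28122 rows, and 190 rows moved by at least 1 log2 unit the same way in both preps against 96 in opposite ways. For CSD4 minus the mean of the other regulators r was 0.06, with 47 rows the same way and 65 in opposite ways. This second r, taken for each of the 10 other regulators, ran from -0.16 for bHLH103 to 0.42 for NAC29, and 5 of the 10 lay below that of CSD4. The r against GFP ran from 0.05 for ZFL2 to 0.31 for NAC29, and only ZFL2 and bHLH103 (0.07) lay below CSD4. All differences from GFP share the same 2 GFP libraries. For GFP minus the mean of all regulators of each prep r was 0.28, with 119 rows the same way and 40 in opposite ways.

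**Figure D5:**
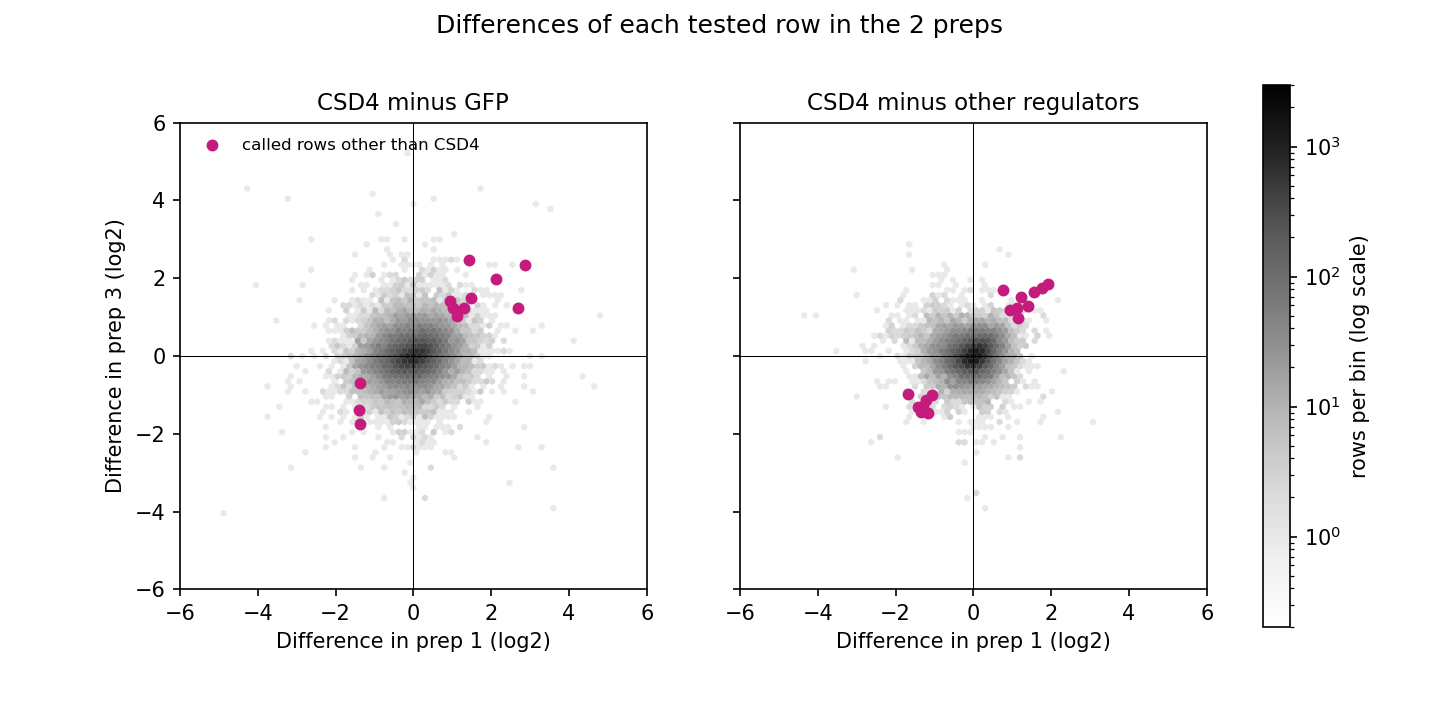
Difference of each of the 28122 rows in prep 1 (horizontal, log2) and prep 3 (vertical, log2), for CSD4 minus GFP on the left and CSD4 minus the other regulators on the right, with grey for the number of rows per bin on a log scale. Called rows are magenta and lie in the corners where both preps have the same sign; CSD4 itself lies outside the axes.

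Both CSD4 libraries lay above all 22 other libraries of the 2 preps in 339 rows (1.21%) and below them in 134 rows (0.476%). The same count for the pairs of libraries of the other regulators ran from 33 to 1044 rows above and from 39 to 691 below, with NAC29 highest in both and CSD4 next to it above. For GFP the numbers were 298 and 304. Both CSD4 libraries lay above both GFP libraries in 5618 rows (20%) and below them in 5466 (19.4%).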

How the data were processed

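Poly(A) RNA was sequenced from libraries made with a directional kit, per the labels' protocols. The authors deposited 1 table of RPKM values, and the submitters' processing notes name HISAT2 2.1.0, featureCounts of Subread 1.6.3, edgeR 3.20.9 and the genome build B73 RefGen_v3. How multi-mapped reads were counted is not given in the sources used here. Gene names came from a RefSeq table of another assembly, NAM-5.0, used for names alone: 14595 row IDs matched and 2011 carried a gene name. No sequence or coordinate is printed.

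RPKM values were tested as log2(RPKM + 0.5) with limma 3.58.1 (R 4.3.3), trended moderated variance and Benjamini-Hochberg adjustment, in 1 model of construct and prep over all 50 libraries with 23 residual degrees of freedom. The fold change on this scale understates that of low rows. Rows needed at least 1 RPKM in at least 2 libraries. Prep was a block because the labels give the number as the protoplast prep. Prep 1 minus prep 3 of CSD4 correlated across rows with that of GFP at r = 0.13, and with those of the other regulators at -0.14 to 0.34. Whole reads were recovered for 30213 of 30213 rows, within 0.05 reads, and were used for read numbers and limma-voom. Both scripts were tested on simulated data. Depth limits precision where a row had few reads.

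Named genes were the CSD4 row, every PHAS row, all called rows, then rows carrying a gene name whose average over preps 1 and 3 was 2 RPKM or more and whose sign was the same in both, lowest p first (10 each way against GFP, 5 each way against the other regulators), and list members with the lowest p or the highest level. Rows named only for an adjusted p below 0.05, rpp2a-4, rel2 and the second sbp12 row, were chosen after their values were seen. The members and lists were chosen with earlier results of these data known, and the name patterns were tightened and 4 lists (autophagy, glutathione S-transferases, aquaporins, protein disulfide isomerases) added after the reference names were seen. Alternatives were another pseudocount (0.1 or 1), no filter, median-ratio rescaling, no fold minimum, no prep block, preps 1 and 3 alone, limma-voom, other references and each library left out. Leaving out the EREB69 libraries was added after the data were seen.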

Additional observations from a re-analysis of the deposited data

How the results depend on the processing

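The CSD4 row was called in all 13 alternatives against either reference, and GRMZM2G015955 likewise, though the setting without a fold minimum cannot remove a call. The count against GFP, 13, became 5 without the replicate block, 6 with preps 1 and 3 alone, 31 without a fold minimum and 7 with limma-voom; with 1 of the 4 libraries left out it ran from 3 to 16. The count against the other regulators, 17, became 11 without the replicate block, 26 with a pseudocount of 0.1 and 129 without a fold minimum, and ran from 9 to 14 with a CSD4 library left out. With 1 library of a group left out, the remaining one is assumed to vary like the other groups. The fits without the block use no pairing by prep; the cause of their lower counts was not tested. The other alternatives, the EREB69 libraries left out included, kept both totals within 1.5 times, though limma-voom turned the 10 higher and 7 lower against the other regulators into 21 and 0. No PHAS row was called in any alternative. Signs of uncalled PHAS rows changed in some alternatives. 21PHAS_NO583 against GFP was 0.0020 with a pseudocount of 0.1 and 0.0056 with median-ratio rescaling. With 1 library left out, log2 changes against GFP ran from -0.68 to 0.68 for 21PHAS_NO583, from -0.27 to 0.45 for 21PHAS_NO556, from -0.39 to 0.89 for 24PHAS_NO8 and from -0.56 to 0.090 for 24PHAS_NO160. Against the other regulators they ran from -0.57 to 0.80 for 21PHAS_NO583 and from -0.19 to 0.44 for 21PHAS_NO556.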

Other observations

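The 4 rows with the widest fitted changes against GFP that were not called were picked after their values were seen. GRMZM2G528148 stood at 13.9 and 12.1 RPKM with GFP, 0 and 0.295 RPKM with CSD4 and 0 to 17.3 RPKM with the other regulators, and its adjusted p by limma was 0.350. GRMZM2G565546 had 0 reads in both GFP libraries and 5 and 7 reads with CSD4, and stood at 0.859 to 10.7 RPKM with the other regulators, with an adjusted p of 0.116. GRMZM2G076204 stood at 0.152 and 0.119 RPKM with GFP, 1 read each, at 5.31 and 9.05 RPKM with CSD4 and at 0.116 to 14.0 RPKM with the other regulators, with an adjusted p of 0.243. GRMZM2G158312 stood at 4.03 and 3.28 RPKM with GFP, at 0 in both CSD4 libraries and at 0 to 4.00 RPKM with the other regulators, with an adjusted p of 0.294. In all 4 rows both CSD4 values lay inside the range of the other regulators. The GFP values lay inside it for GRMZM2G528148 and GRMZM2G076204, both below it for GRMZM2G565546, and the higher one just above it for GRMZM2G158312.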
